A study of Mus musculus with 8 samples.

Results

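The genes described here are the membrane protease Adam10, its closest relative Adam17, the 6 TspanC8 tetraspanins (Tspan5, Tspan10, Tspan14, Tspan15, Tspan17 and Tspan33) and the protease inhibitors Timp1 and Timp3. They were chosen by name, as probe sets annotated with exactly 1 of these symbols, and all 10 were found, each with 1 probe set, among 19935 genes on the arrays. The study hybridised RNA of mouse skin to Affymetrix Mouse Gene 1.0 arrays, 4 from Adam10 knockout mice and 4 from wild-type mice, 1 array per sample. The labels call the material both skin and primary skin cells. Knockout titles begin with cKO, which commonly stands for a conditional knockout, but the labels used here give no Cre driver, deleted exon, strain, sex or treatment, and do not say whether each sample is a separate animal. Each title also carries a P number, none of them shared between the groups, and the labels do not say whether it is an animal number or an age. The number of knockout array 4 lies below all wild-type numbers, and the other knockout numbers lie above them. If the P number is an age, age and genotype are mixed in part, and the part of age was not tested. Spread between samples, which may be technical, is thus all that the p-values weigh.

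ADAM10 and ADAM17 are membrane-anchored metalloproteases that cut the extracellular part of other membrane proteins close to the cell surface, a step called shedding. ADAM10 makes the cut that starts Notch signalling, and ADAM17 releases tumour necrosis factor and several ligands of the EGF receptor. Each is made as an inactive precursor, and proprotein convertases such as furin remove the propeptide. TspanC8 tetraspanins bind ADAM10, help it leave the endoplasmic reticulum and steer it to different substrates, while the iRhom proteins do the matching work for ADAM17. TIMP1 and TIMP3 are secreted inhibitors that can block ADAM10, and TIMP3 also blocks ADAM17.

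None of the 10 genes passed the threshold between knockout and wild-type skin. In limma, with p-values adjusted over all 19935 genes and a threshold of 0.05, 0 of 10 were called, and 2 of 10 (Adam10 and Tspan5) had an unadjusted p under 0.05. Across all genes 8.75% were called in either direction, 6.41% higher and 2.34% lower in knockout, and 25.1% had an unadjusted p under 0.05. Of the called genes 73.2% were higher in knockout, a share that was 56.5% after quantile normalization and 50.8% after cyclic loess, so values near 0 below can turn with the scaling. The knockout and wild-type values did not overlap for 3 of the 10 genes, lower in knockout for Adam10 and higher for Tspan5 and Tspan14. Among all genes 5.86% were non-overlapping and lower and 12.2% non-overlapping and higher in knockout, 18.1% in all. The median difference was 0.11 on the log2 scale over the 10 genes, 0.0027 over all genes and 0.11 over the genes at or above the median level, where 7 of the 10 lie. After quantile normalization the median of the 10 was 0.019, and after cyclic loess -0.015. In simulated data 34% of changes of 0.5 log2 units were recovered at the threshold, so a gene not called may still differ. Only 50 genes were changed there at each size, while 1744 genes were called in the data. The adjustment depends on how many genes change, so the share recovered here may be another.

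The start regions of Adam10, Adam17 and Tspan5 are shown because these are the protease pair and the TspanC8 gene whose difference was largest. Each is the 250 bases before a RefSeq transcript start in assembly GRCm38.p6, read 5′ to 3′ on the gene's own strand. That start need not be the outermost of the gene. The Tspan5 window lies within the span of its gene, the Adam10 window reaches into its gene, and the Adam17 window lies wholly upstream. They lie at chr9:70678732-70678981 (Adam10, plus strand), chr12:21373633-21373882 (Adam17, minus strand) and chr3:138741958-138742207 (Tspan5, plus strand). Capitals mark the GC box GGGCGG, the core letters bound by Sp1-type factors, and the E box CACGTG, each searched on both strands.
Adam10: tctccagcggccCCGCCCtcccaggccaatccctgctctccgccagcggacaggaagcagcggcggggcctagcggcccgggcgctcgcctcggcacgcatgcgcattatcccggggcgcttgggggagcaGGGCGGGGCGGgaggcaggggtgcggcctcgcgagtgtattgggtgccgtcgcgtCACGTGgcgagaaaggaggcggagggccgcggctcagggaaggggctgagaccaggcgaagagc
Adam17: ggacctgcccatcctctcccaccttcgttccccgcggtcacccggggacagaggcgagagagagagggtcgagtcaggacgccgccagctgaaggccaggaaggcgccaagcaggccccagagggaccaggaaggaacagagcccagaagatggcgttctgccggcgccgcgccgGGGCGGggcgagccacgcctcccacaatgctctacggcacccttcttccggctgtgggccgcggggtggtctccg
Tspan5: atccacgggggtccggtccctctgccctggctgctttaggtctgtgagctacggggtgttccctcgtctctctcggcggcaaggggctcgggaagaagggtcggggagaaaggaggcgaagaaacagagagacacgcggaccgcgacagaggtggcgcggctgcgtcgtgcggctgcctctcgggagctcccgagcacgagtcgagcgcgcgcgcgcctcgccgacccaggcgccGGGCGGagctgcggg
The Adam10 window holds 3 GC boxes, of which the last 2 overlap by their shared end base, and 1 E box, while the Adam17 and Tspan5 windows hold 1 GC box each. The 10 genes have 11 windows, of which 8 held a GC box, 1 window for each gene but Tspan10 and Tspan15, against 32.7% of the 32851 mouse windows in the table. The E box occurred in 1 of the 11, that of Adam10, against 6.02% of all windows. The letters TGANTCA of AP-1 were found in 1 window, that of Tspan15 (6.75% of all windows), CCAAT in 4 (33.8%), and the RBPJ letters GTGGGAA in 0 (5.42%). Tspan14 has 2 windows in the table, and its upstream one holds 5 GC boxes while its downstream one has none. GC content ran from 47.6% in that downstream window to 74.0% in Adam10.

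Adam10, whose gene spans chr9:70678944-70780229 in GRCm38.p6, averaged 22.0% lower in the knockout but did not pass the limma threshold. Its intensity was 116, 128, 132 and 111 on knockout arrays 1 to 4, against 167, 161, 134 and 163 on wild-type arrays 1 to 4. The groups did not overlap, but wild-type array 3 stood only 1.3% above knockout array 3. The log2 mean was 6.92 ± 0.12 in knockout and 7.28 ± 0.15 in wild type (SD, n = 4 each), a difference of -0.36 (95% interval -0.60 to -0.12), or a fold of 0.78. The adjusted p from limma was 0.064. The exact two-sided permutation p over 70 assignments, not adjusted over genes, was 0.0286, the smallest they can give. Every gene whose groups do not overlap gets this value, 18.1% of all genes, so it only restates the lack of overlap. Adam10 passed the threshold under 5 of 18 alternative settings, among them quantile normalization (-0.49, adjusted p = 0.028) and cyclic loess (-0.52, adjusted p = 0.023), and under none of the 8 fits that left out 1 array. It stood above 85.3% of the 35519 probe sets on every array, so knockout samples kept a signal far from the dim end. A probe set averages probes along the transcript, the deleted exon is not stated, and in whole tissue fewer cells of a type and less RNA per cell cannot be told apart.

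Adam17 (chr12:21323509-21373632) also averaged lower in the knockout, by 14.2%, but the groups overlapped and it did not pass. Its intensity was 131, 131, 125 and 135 in knockout and 168, 134, 167 and 142 in wild type. The knockout values were tight (SD 0.046 on the log2 scale) and the wild-type values spread more widely (SD 0.17), with wild-type array 2 below knockout array 4. The difference was -0.22 on the log2 scale (95% interval -0.45 to 0.0072), or a fold of 0.86, with an adjusted p of 0.21 in limma and an exact permutation p of 0.0571. After cyclic loess it was -0.38 and passed (adjusted p = 0.037), and after quantile normalization it was -0.35 and did not (adjusted p = 0.051).

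The change of Adam10 could not be told from that of Adam17. The log2 ratio of Adam10 to Adam17 within each array was -0.18, -0.030, 0.078 and -0.29 in knockout, and -0.010, 0.27, -0.32 and 0.19 in wild type. Both groups held values on either side of 0. The mean ratio differed by -0.14 (exact two-sided permutation p = 0.43). Leaving out 1 array moved this difference between -0.059 without wild-type array 2 and -0.26 without wild-type array 3, with the lowest exact permutation p at 0.11.

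**Figure D1:**
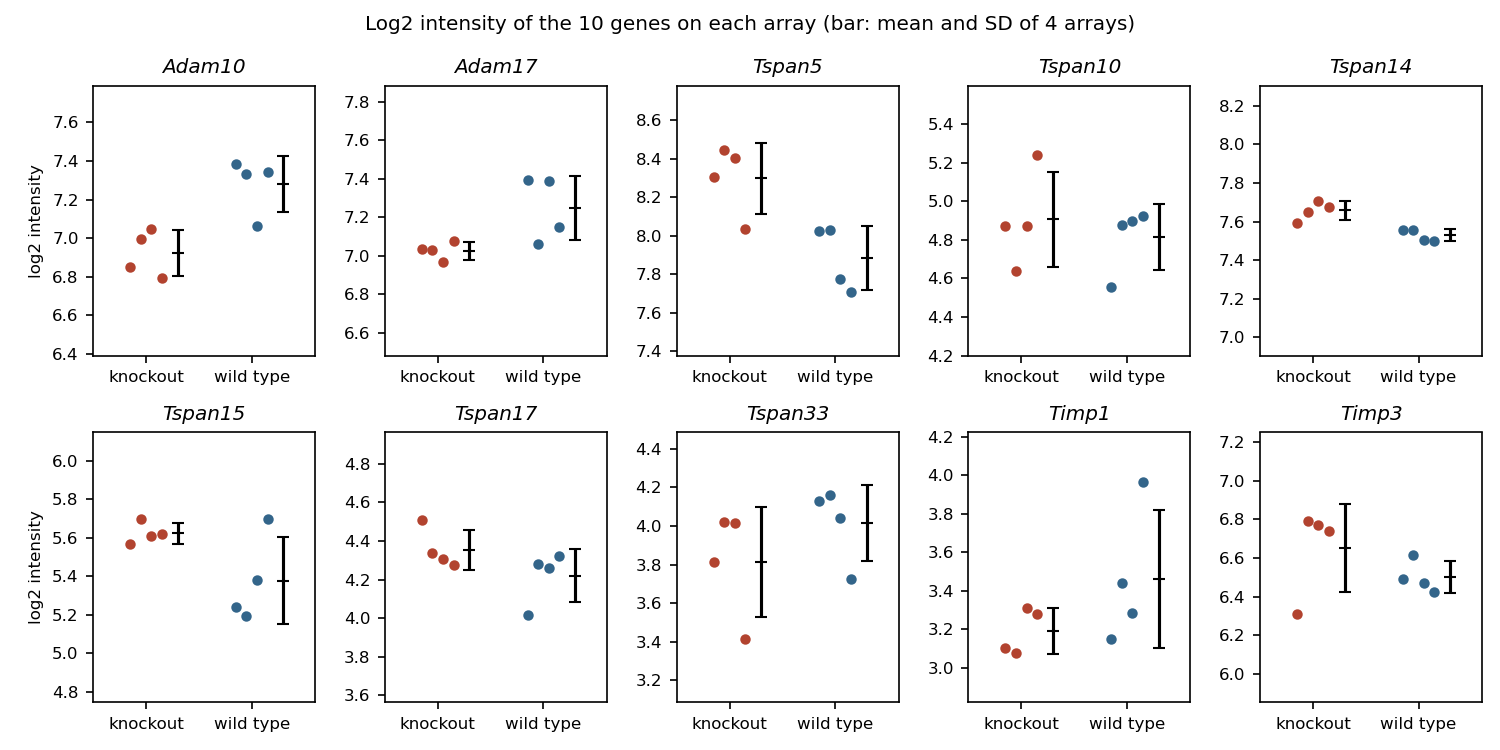
Log2 intensity of each gene (y axis) on the 4 knockout arrays (red, left) and the 4 wild-type arrays (blue, right), with the group mean and SD as a black bar. Panels share a height of 1.4 log2 units but not a centre. Adam10 lies lower and Tspan5 and Tspan14 lie higher in knockout without overlap, and the other 7 genes overlap.

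Of the 6 TspanC8 genes, 5 had a mean above and 1 (Tspan33) a mean below wild type, and 0 were called. Their median difference was 0.13 on the log2 scale, against 0.0027 over all genes. For the 4 of them at or above the median level it was 0.19, against 0.11 over all genes at or above that level. Of the 19935 genes 10056 had a mean above wild type. After cyclic loess Tspan14 was also below wild type and the TspanC8 median was 0.10. Tspan5 (chr3:138741848-138904433), which with Tspan17 forms the most closely related pair of the group, had the largest difference of the 10 genes. Its intensity was 316, 349, 339 and 262 in knockout, against 260, 261, 219 and 209 in wild type. The 4 knockout values lay above all wild-type values, although knockout array 4 was 0.48% above the highest of them. The log2 mean was 8.30 ± 0.18 in knockout and 7.88 ± 0.17 in wild type (SD, n = 4 each), a difference of 0.41 (95% interval 0.14 to 0.69), or a fold of 1.33. The adjusted p was 0.065 in limma and the exact permutation p 0.0286, as for any gene whose groups do not overlap. Tspan5 passed under 4 of 18 alternative settings. Among them were the fit without knockout array 4 (0.50, adjusted p = 0.034), the fit without dim genes (adjusted p = 0.033) and a trended and robust prior (adjusted p = 0.045). The difference was 0.29 after quantile normalization (adjusted p = 0.19) and 0.26 after cyclic loess (adjusted p = 0.22), and passed in neither. With wild-type arrays 3 and 4 removed, it was 0.27 and did not pass (adjusted p = 0.32), a move of more than 1.5 times. The muscle and dermal signal of those 2 arrays exceeded that of the rest.

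Tspan14, which in cell culture supports ADAM10 maturation, varied least between arrays. It had 193, 201, 209 and 205 intensity units in knockout, against 188, 188, 182 and 181 in wild type. The groups did not overlap and each was tight, with SDs of 0.049 and 0.031 on the log2 scale. The difference of 0.13 (95% interval -0.052 to 0.31) was a fold of 1.09. The exact permutation p was 0.0286, as for any gene whose groups do not overlap. The adjusted p was 0.35 in limma, which draws the variance of each gene toward that of all genes. The difference was 0.0073 after quantile normalization and -0.029 after cyclic loess, so its direction depends on the scaling.

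Tspan15, linked in other studies to the cleavage of N-cadherin by ADAM10, differed by 0.24 on the log2 scale (95% interval -0.019 to 0.51, adjusted p = 0.23). Its intensity was 47.3, 51.8, 48.9 and 49.1 in knockout and 37.8, 36.6, 41.6 and 51.8 in wild type. All knockout values were above wild-type arrays 1 to 3, and wild-type array 4 was level with the highest knockout value. Without wild-type array 4 the difference was 0.35 and passed (adjusted p = 0.043), and without arrays 3 and 4 it was 0.41 (adjusted p = 0.073).

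Tspan17, Tspan10 and Tspan33 overlapped between the groups. Tspan17 had 22.7, 20.2, 19.8 and 19.3 units in knockout and 16.2, 19.4, 19.1 and 20.0 in wild type, a log2 difference of 0.14 (95% interval -0.092 to 0.36). Wild-type array 1 was its lowest value and knockout array 1 its highest, and the difference was 0.068 without the first and 0.085 without the second of these. Tspan10, also called oculospanin and known from pigment cells of the eye, had 29.3, 24.9, 29.3 and 37.8 units in knockout and 23.5, 29.4, 29.8 and 30.4 in wild type. Knockout array 4 was high and wild-type array 1 low, and the log2 difference of 0.092 (95% interval -0.22 to 0.40) became -0.019 without knockout array 4. It was 0.18 when knockout array 2 was left out and 0.0062 when wild-type array 1 was. Tspan33, known from red cell precursors and B cells, had 14.04, 16.2, 16.2 and 10.6 units in knockout and 17.5, 17.9, 16.5 and 13.2 in wild type. Array 4 was the lowest of each group, and the difference was -0.20 (95% interval -0.54 to 0.14), or -0.066 without knockout array 4. With wild-type arrays 3 and 4 removed it was -0.33 in Tspan33, 0.21 in Tspan17 and 0.19 in Tspan10. The adjusted p-values of Tspan17, Tspan10 and Tspan33 in limma were 0.44, 0.72 and 0.45. The intervals leave room for folds of 0.94 to 1.29 in Tspan17, 0.86 to 1.32 in Tspan10 and 0.69 to 1.10 in Tspan33.

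The 2 inhibitors differed in opposite directions, neither past the threshold. Timp1 was dim, between the 39.2nd and the 50.7th percentile of probe sets. It had 8.60, 8.44, 9.93 and 9.71 units in knockout and 8.87, 10.9, 9.75 and 15.6 in wild type. Wild-type array 4 was its highest value. The difference was -0.27 (95% interval -0.63 to 0.097, adjusted p = 0.34) with that array and -0.099 without it, and -0.16 after quantile normalization. Timp3, which binds to the extracellular matrix, had 79.4, 111, 109 and 107 units in knockout and 89.98, 98.0, 88.7 and 85.9 in wild type. Knockout arrays 2 to 4 were above and knockout array 1 below all wild-type arrays. The difference was 0.15 (95% interval -0.12 to 0.42, adjusted p = 0.47). Without knockout array 1 it was 0.27 (adjusted p = 0.16), after quantile normalization 0.032, and after cyclic loess -0.0011.

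**Figure D2:**
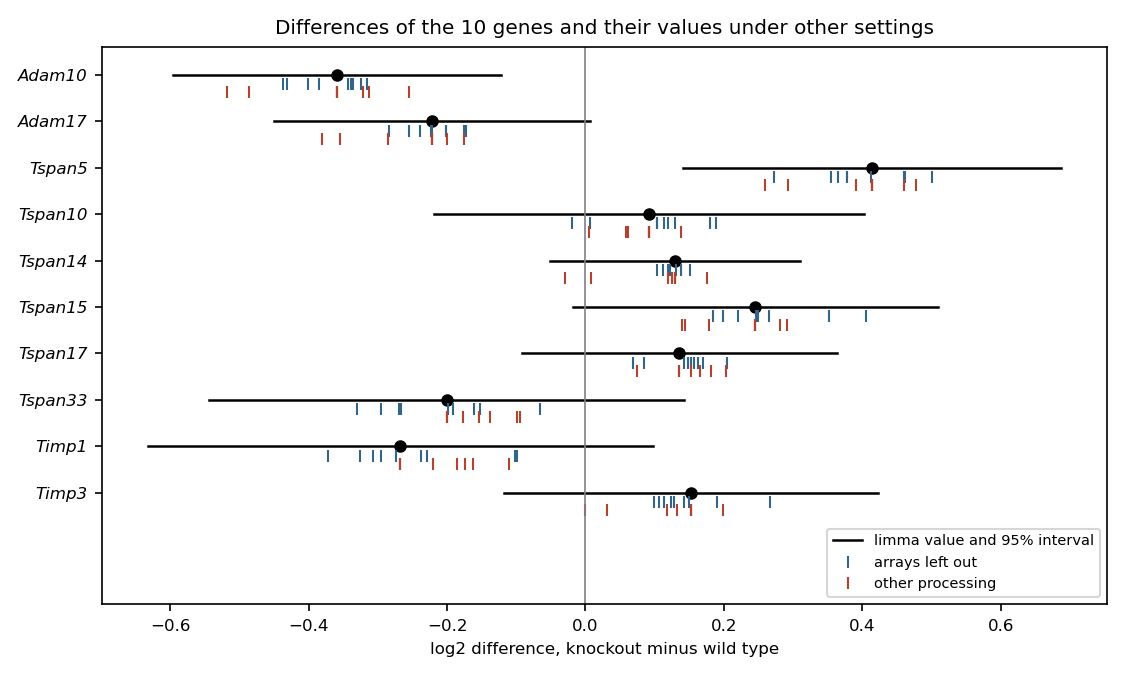
Log2 difference, knockout minus wild type (x axis), of the 10 genes (y axis): the black point and line are the limma value and its 95% interval, blue ticks the values with 1 array or wild-type arrays 3 and 4 left out, red ticks the values under other processing. Adam10 and Tspan5 are the 2 genes whose interval does not reach 0, and ticks of Tspan10, Tspan14 and Timp3 fall on both sides of 0.

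The arrays also differed in the RNA of several cell types. Keratins of the epidermis were bright throughout: Krt5, Krt14 and Krt10 stood above at least 99.2% of probe sets on every array. As a share of all genes, 6.41% rose and 2.34% fell past the threshold. Of 13 basal keratinocyte genes 12 rose, and their summed intensity was 14290 to 16359 in knockout and 8306 to 11140 in wild type. Of 10 melanocyte genes 5 rose (sums 702 to 1026 in knockout, 425 to 617 in wild type), and of 16 macrophage genes 10 fell (324 to 422 in knockout, 617 to 975 in wild type). None of the skeletal muscle (22), dermal fibroblast (15), adipocyte (14) and endothelial (12) genes passed in limma, with 3, 5, 3 and 0 at an unadjusted p under 0.05, but wild-type array 4 carried much more of them. Muscle genes summed to 348 to 417 in knockout, 409 to 1567 on wild-type arrays 1 to 3 and 9630 on wild-type array 4. Dermal genes summed to 1816 to 2014 in knockout, 1320 to 2919 on wild-type arrays 1 to 3 and 10002 on wild-type array 4. Adipocyte genes summed to 269 to 336 in knockout and 357 to 4088 in wild type, and endothelial genes to 149 to 170 in knockout and 150 to 653 in wild type. Of 9 suprabasal genes 1 rose and 1 fell (sums 21662 to 24421 in knockout, 20514 to 26264 in wild type). No marker was listed at 0 on any array. The part of these lists in the differences of the 10 genes was not tested beyond leaving arrays out.

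**Figure D3:**
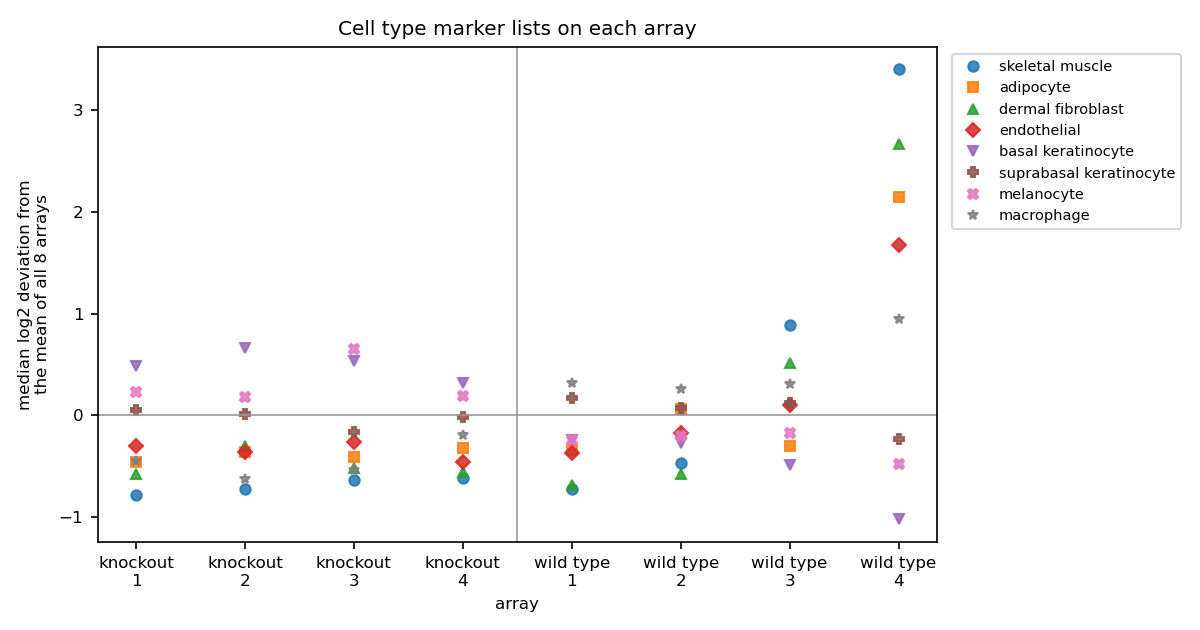
Median log2 deviation of each cell type marker list from its mean over the 8 arrays (y axis) on knockout arrays 1 to 4 (left) and wild-type arrays 1 to 4 (right), 1 symbol per list. The skeletal muscle list reaches 3.40 on the fourth wild-type array and 0.89 on the third one, and the basal keratinocyte list lies at 0.32 to 0.66 in knockout and -1.02 to -0.24 in wild type.

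Genes that process or carry the proteases to the surface gave 1 rise and 0 falls among 7 (14.3%, against 8.75% of all genes in either direction and 6.41% higher). Frmd8, which binds the iRhom proteins and stabilises ADAM17 at the surface, had 69.9, 66.3, 61.8 and 55.2 units in knockout and 43.0, 48.5, 44.5 and 47.3 in wild type. All knockout values were higher, the difference was 0.46 (SE 0.10) and the adjusted p 0.022. The call was lost when knockout array 1 (adjusted p = 0.070), 2 (0.080) or 3 (0.057) or wild-type array 3 (0.069) was omitted, and after quantile normalization (0.075) or cyclic loess (0.086), and without both wild-type arrays 3 and 4 (0.083). The convertase Furin (0.36, SE 0.13) and the iRhom gene Rhbdf1 (0.26, SE 0.096) were also higher in knockout without overlap, with adjusted p-values of 0.12 for each. Frmd8, Furin and Rhbdf1 were thus 3 of 7 non-overlapping and higher, against 12.2% of all genes. The other iRhom gene, Rhbdf2, differed by -0.036 (SE 0.12), and its sign turned after median centring or without knockout array 3 or wild-type array 1 or 3. Another convertase, Pcsk5, went the other way (-0.31, SE 0.14), with overlap, and did not pass. Furin, Pcsk5 and the iRhom pair were picked out after their values were seen. Of the 7 genes, 4 had a mean above and 3 a mean below wild type. Over the 7 genes the median difference was 0.15.

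Among 4 further inhibitors (Timp2, Timp4, Reck and Sfrp1) 0 passed in limma and 0 had an unadjusted p under 0.05. The largest differences were in Reck, a membrane-bound inhibitor of metalloproteases (-0.65, SE 0.46), and Timp4 (-0.39, SE 0.22). Reck was at 12.0, 12.2, 13.6 and 10.2 units in knockout and at 11.02, 12.0, 14.9 and 62.9 in wild type, with wild-type array 4 far above the rest, and the difference without it was -0.072. Timp4 had 5.07, 4.35, 5.07 and 4.44 units in knockout and 5.54, 4.10, 6.47 and 10.00 in wild type. Wild-type array 4 was again highest, and the difference without it was -0.16.

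Of 24 other tetraspanins, which organise membrane proteins but are not in the TspanC8 group, 2 rose and 1 fell (12.5%, near the 8.75% of all genes), with a median difference of -0.052. Cd9, a tetraspanin abundant in keratinocytes, had 970, 985, 1109 and 857 units in knockout and 624, 670, 662 and 553 in wild type. No values overlapped, the difference was 0.64 (SE 0.11) and the adjusted p 0.0077, and it passed under all 18 alternatives. Cd151, the partner of laminin-binding integrins in hemidesmosomes, had 168, 176, 177 and 144 units in knockout and 88.9, 113, 119 and 143 in wild type. The difference was 0.54 (SE 0.14, adjusted p = 0.046), and it lost its call in 6 of the 8 fits with 1 array left out (adjusted p 0.066 to 0.13). Those were the fits without knockout array 1, 2 or 3 or wild-type array 1, 2 or 3. It also missed the threshold after quantile normalization (0.17), after cyclic loess (0.21) and over all probe sets (0.092). Cd53, a tetraspanin of leukocytes, had 18.6, 16.1, 14.98 and 17.1 units in knockout and 30.1, 27.9, 28.6 and 56.4 in wild type. The log2 difference was -1.04 (SE 0.21, adjusted p = 0.015), and without knockout array 2 (0.058) or 3 (0.051) it missed the threshold. Without wild-type array 4, its highest value, the difference was -0.79 and passed. The basal keratinocyte and macrophage sums given above moved the same way as Cd9 and Cd151 and as Cd53, and their part was not tested. Without wild-type array 4 the counts were 5 rises and 1 fall, and with array weights 5 rises and 2 falls.

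**Figure D4:**
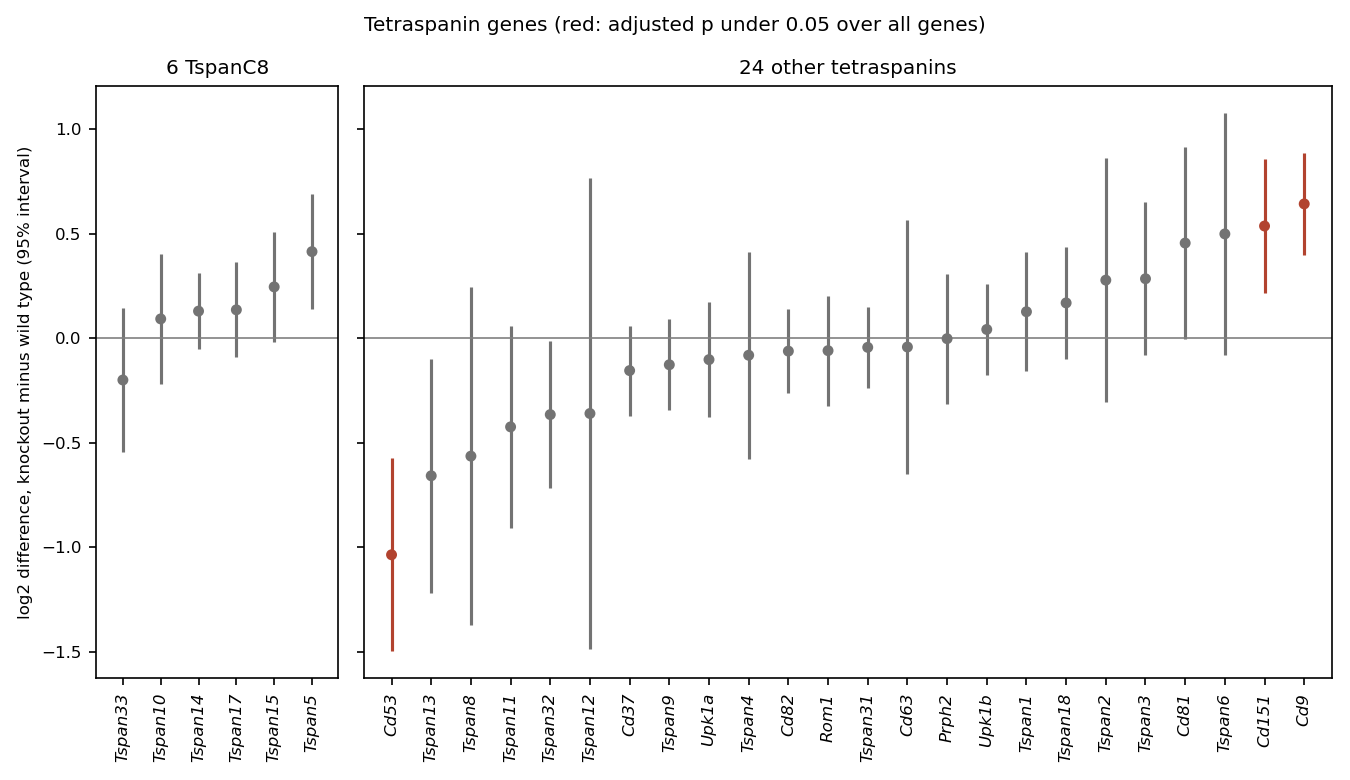
Log2 difference, knockout minus wild type, with its 95% interval (y axis) for the 6 TspanC8 genes (left) and 24 other tetraspanins (right), sorted within each panel; red marks an adjusted p under 0.05 over all genes. The TspanC8 values run from -0.20 (Tspan33) to 0.41 (Tspan5), and the other tetraspanins from -1.04 (Cd53) to 0.64 (Cd9).

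Genes whose pattern was most like Adam10, Adam17 and Tspan14 were found by Pearson r of log2 values over the 8 arrays, among 9733 named genes at or above the median level. These values are descriptions, and they share the genotype difference and the tissue makeup of the arrays. Adam10 and Tspan14 did not overlap between genotypes, so the search favours genes that differ by genotype. The adjusted p-values below carry that choice. For Adam10 they were Tmem97 (r = 0.97, 0.88 on deviations from the genotype means), a sterol-regulated membrane protein, Dupd1 (r = 0.94, 0.91 within genotype), a dual-specificity phosphatase, and Atp6v0e2 (r = 0.94, 0.77 within genotype), a subunit of the vacuolar proton pump. The log2 difference of Atp6v0e2 was -0.43 (SE 0.11, adjusted p = 0.035), and 1 of 8 fits with 1 array left out kept it past the threshold, the one without wild-type array 4 (-0.44, adjusted p = 0.041). It also missed after median centring (0.051), over all probe sets (0.069) and without both wild-type arrays 3 and 4 (0.084). Tmem97 and Dupd1 differed by -0.26 and -0.24 and did not pass, although Tmem97 passed under 3 of 18 alternatives. For Adam17 they were Krcc1 (r = 0.97), the ribonuclease Rnase1 (r = 0.96) and Hacd2 (r = 0.95), an enzyme of very long chain fatty acid synthesis. Their differences were -0.26, -0.75 and -0.36, none past the threshold (adjusted p = 0.18, 0.052 and 0.085). Rnase1 passed under 7 and Hacd2 under 5 of 18 alternatives, and Krcc1 under 0. For Tspan14 they were Pmf1 (r = 0.98), a kinetochore protein, Bcl2 (r = 0.98), which blocks apoptosis, and the sorting receptor Sorl1 (r = 0.98). Bcl2 rose by 0.69 (SE 0.13, adjusted p = 0.011) and Sorl1 by 0.56 (SE 0.13, adjusted p = 0.024), while Pmf1 differed by 0.30 (adjusted p = 0.052) and passed under 5 of 18 alternatives. Sorl1 lost its call in 4 of the 8 fits with 1 array left out, those without knockout array 2 (adjusted p = 0.077), 3 (0.069) or 4 (0.053) or wild-type array 3 (0.073). It also lost it after quantile normalization (0.063), after cyclic loess (0.060) and over all probe sets (0.054). Without both wild-type arrays 3 and 4, neither Bcl2 (adjusted p = 0.058) nor Sorl1 (0.13) passed.

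Within a genotype the pairs of the 10 genes ranged from alike to opposed. Of the 45 pairs, the deviations from the genotype means were most alike for Tspan5 and Tspan33 (r = 0.94 over 8 arrays) and for Tspan14 and Timp3 (r = 0.83). They were most opposed for Tspan5 and Tspan10 (r = -0.82) and for Tspan10 and Tspan33 (r = -0.78). Adam10 and Tspan5, which differed in opposite directions between genotypes, had r = 0.65 within genotype and -0.47 over all 8 arrays. These are descriptions over arrays of 1 tissue and 1 platform, with no test.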

How the data were processed

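RNA of mouse skin was measured on 8 arrays, 4 knockout and 4 wild type. The deposited table gives an intensity for each probe set on each array, produced by RMA per the submitters' processing notes, with no version or settings stated there. This method, short for robust multi-array average, usually subtracts background, equalises the arrays' distributions and condenses several probes into 1 value. The array medians ran from 13.3 to 15.1 intensity units, so the deposited values were not equal in distribution. Since the intensities spanned 0.817 to 11173, a linear scale was assumed, and log2 was taken without a pseudocount. Arrays give no depth, and their number limits the precision.

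Of 35519 probe sets 21780 had exactly 1 symbol in the platform annotation, 1605 several and 12134 none. The brightest probe set of each gene was kept, which gave 19935 genes with no filter. The 10 genes matched RefSeq (GRCm38.p6) by Entrez identifier. Knockout was compared with wild type in limma 3.58.1 (R 4.3.3, lmFit, eBayes, two-sided, Benjamini-Hochberg over all genes, threshold 0.05), and single values by exact permutation over 70 assignments. The limma fit was tried first on simulated arrays with 50 genes changed at each of 0.5, 1, 2 and 3 log2 units. It recovered 34%, 86%, 100% and 98% of them, with 11 false calls. Each difference is log2 of knockout minus log2 of wild type. Normalizations tried as alternatives were run over the 19935 genes. Promoter windows are RefSeq's, and the motif search was run in Python 3.11.15.

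The genes and lists were chosen with earlier results of these data known. Named beside the 10 genes are list members that passed, the 2 largest differences of a list in which none did, and the 3 genes most like Adam10, Adam17 and Tspan14. The search for the last group skipped predicted genes and chemosensory receptors. Furin, Pcsk5, Rhbdf1 and Rhbdf2 were named outside these rules, after their values were seen.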

Additional observations from a re-analysis of the deposited data

Results flagged for a closer look

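In 5 of the 56 groups of 4 arrays examined, 1 array stood apart from the other 3 by more than Dixon's 95% critical value for the gap over the range, and chance gives about 1 in 20. Adam10 was low on wild-type array 3, at 7.06 on the log2 scale against 7.33 to 7.39 on the other wild-type arrays (ratio 0.831). Tspan10 was low on wild-type array 1, at 4.56 against 4.88 to 4.92 (ratio 0.878). Timp3 was low on knockout array 1, at 6.31 against 6.74 to 6.79 on the other knockout arrays (ratio 0.897). Cd53 was high on wild-type array 4, at 5.82 against 4.80 to 4.91 (ratio 0.896), and Furin was low there, at 6.92 against 7.35 to 7.42 (ratio 0.852). The macrophage list sum was also highest on wild-type array 4 and the basal keratinocyte sum lowest there. The cause of these values was not tested.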

How the results depend on the processing

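With 177 combinations of the 10 genes and alternatives, 163 kept direction and side of the threshold, 11 newly passed it, 3 changed sign and 0 lost a call, as there were none to lose. Adam10 passed after quantile normalization (-0.49), cyclic loess (-0.52), without dim genes (-0.36), as log2(value + 16) (-0.32) and with a trended and robust prior (-0.36). With 1 array left out it ran from -0.43 to -0.32 and passed in none. Its smallest difference over the 18 alternatives was -0.26, with array weights, and did not pass. Tspan5 passed under 4 of 18 alternatives and ran from 0.26 to 0.50 over them. Tspan14 (-0.029) and Timp3 (-0.0011) changed sign after cyclic loess, and Tspan10 without knockout array 4, in a range of -0.019 to 0.18 over the fits with 1 array left out. Rhbdf2 turned to 0.010 after median centring and ran from -0.15 to 0.018 with 1 array left out, above 0 without knockout array 3 or wild-type array 1 or 3, and Reck to 0.052 without wild-type arrays 3 and 4. The difference between Adam10 and Adam17 ran from -0.26 to -0.059 with 1 array left out and passed under none of its alternatives. With 3 against 4 arrays it rests on fewer assignments, and without wild-type arrays 3 and 4 they were too few for any p under 0.05. Against 1744 genes called, 1099 were called over all probe sets, 3621 with array weights, 925 without wild-type arrays 3 and 4, 478 at a threshold of 0.01 and 2958 at 0.10. Leaving out 1 array gave 587 to 1997. The causes were not tested. Without dim genes, Timp1, Tspan17 and Tspan33 had no value. No paired analysis was possible because the groups share no replicate number in the labels. Without detection calls, how far each gene stands above background is not known.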
